A study of Mus musculus with 36 samples.

Results

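The genes described here carry glucose into the cell, break it down to pyruvate, exchange pyruvate with lactate, and gate the entry of pyruvate into mitochondria. They were followed in germ cells and supporting cells sorted from XX and XY fetal mouse gonads. The 37 genes were listed by name, and a gene was read from a probe set that the platform annotation gives to that gene alone. Of the 37 listed genes, 33 could be read in this way, out of 19938 genes with such a probe set, and all 33 passed the filter on low values that left 17571 genes for testing. Gapdh, Gpi1, Eno1 and Pfkfb1 were represented only by probe sets shared with other genes or copies, or by none, and have no value here. Where a gene had several probe sets, the one with the highest mean over all 36 arrays, 1 of which was later left out, was used. Over the 35 arrays kept, this choice would change for Pgk1 alone.

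Affymetrix Mouse Gene 1.0 ST arrays, 36 in all, measured RNA of 12 groups of 3. The groups were germ cells and supporting cells (the somatic lineage that becomes Sertoli cells in the testis and granulosa cells in the ovary), each XX and XY, at the stages TS13, TS24 and TS34. All germ cells came from mice descended from C57BL/6NJ on a mixed background and were sorted by an Oct4 reporter, which marks cells that express the pluripotency gene Oct4. Supporting cells of XX gonads at all 3 stages and of XY gonads at TS13 came from Tg(Sry-EGFP)92Ei mice on CD-1, in which a fluorescent protein is driven by sequences of the sex-determining gene Sry. Supporting cells of XY gonads at TS24 and TS34 came from Tg(Sox9-cre/ERT2)1Msan/J mice on C57BL/6, with Sox9, a Sertoli cell gene, as the reported gene. Germ cells against supporting cells is therefore also a comparison of mouse lines, as are XX against XY supporting cells at TS24 and TS34 and the step from TS13 to TS24 in XY supporting cells; cell type, sex or stage and mouse line cannot be told apart there. The sex comparisons within germ cells, the stage comparisons within germ cells and the sex comparison of supporting cells at TS13 each lay within 1 line. Gonads were pooled by sex before sorting, the labels do not say whether the 3 arrays of a group came from separate pools, and the p-values therefore reflect spread among the arrays of a group, which may be technical.

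Glycolysis turns glucose into pyruvate. Hexokinase and phosphofructokinase commit sugar to the pathway, and the bifunctional PFKFB enzymes set the level of fructose 2,6-bisphosphate, which activates phosphofructokinase. Lactate dehydrogenase exchanges pyruvate and lactate, monocarboxylate transporters move both across membranes, and pyruvate dehydrogenase, which its kinases inhibit, feeds pyruvate to the citrate cycle. Sertoli cells are known for making lactate that germ cells of the adult testis take up.

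The germ cell markers (Pou5f1, Ddx4, Dazl, Dppa3, Dppa5a, Kit, Nanog and Sox2) were higher in germ than in supporting cells in 8 of 8 cases in each of the 6 matched comparisons. The third XX germ array at TS24 had a mean level of 9.96 over the supporting cell markers, against 6.45 and 6.91 in the other arrays of its group, and 9.38 over stromal markers, against 6.63 to 7.20. This array was left out, so that group has 2 arrays and 35 arrays were used. Levels are log2 values, a difference of 1 is a doubling, and errors of differences are standard errors (SE) from limma fitted to all tested genes at once. A gene is called changed where its p-value, adjusted by Benjamini-Hochberg across the tested genes of a comparison, is under 0.05. Each bulk sample gives RNA per unit of total RNA, so fewer cells of a type and less RNA per cell cannot be told apart.

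Germ cells and supporting cells differed in members of every stage of the pathway, from sugar uptake to pyruvate dehydrogenase. The glucose transporter gene Slc2a3, the pyruvate dehydrogenase subunit gene Pdha1 and the monocarboxylate transporter gene Slc16a1 were higher in germ cells in all 6 matched comparisons (XX and XY at each stage). Both lactate dehydrogenase genes among the members, Ldha and Ldhb, the triosephosphate isomerase gene Tpi1 and the phosphofructokinase gene Pfkl were lower in germ cells in all 6. Of the 33 members, 16 were called in XX at TS13, where 30.4% of all tested genes were called (9 members higher in germ cells, against 20.1% of all genes, and 7 lower, against 10.3%). At TS24 it was 17 (27.9% of all), with 8 higher (16.5%) and 9 lower (11.3%), and at TS34 16 (30.1%), with 4 higher (17.2%) and 12 lower (13%). In XY the counts were 16 at TS13 (32.4%), with 10 higher (23.5%) and 6 lower (8.98%), 19 at TS24 (31.9%), with 8 higher (16.9%) and 11 lower (14.9%), and 18 at TS34 (28.9%), with 7 higher (16.8%) and 11 lower (12.1%). The median difference of the members in XX was 0.11, -0.08 and -0.15 at TS13, TS24 and TS34, against 0.07, 0.06 and 0.05 for all tested genes. In XY it was 0.11, -0.15 and -0.10, against 0.17, 0.02 and 0.14. At TS24 and TS34 the members' median was thus below 0 and below that of all genes in both sexes. With the filter at the 50th percentile, however, the members' median in XX at TS24 was 0.06.

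Among the transporters, Slc2a3, which encodes a glucose transporter with high affinity, showed the widest gap. Its level ran from 7.05 over a median of 8.40 to 9.56 in the 17 germ cell arrays, and from 5.69 over 5.99 to 6.51 in the 18 supporting cell arrays. No germ cell array reached down to a supporting cell array. The difference was 2.98 ± 0.24 in XX and 2.97 ± 0.24 in XY at TS13, and 1.83 ± 0.24 in XX and 1.96 ± 0.24 in XY at TS34 (limma adjusted p between 3.68e-15 and 9.89e-09). Slc16a1, which encodes the monocarboxylate transporter MCT1, ran from 7.50 to 8.73 with a median of 7.88 in germ cells and from 6.19 to 7.36 with a median of 6.81 in supporting cells, again without overlap. Its differences lay between 0.73 and 1.42, and the smallest, in XX at TS24, lost its call without germ replicate 2 (adjusted p = 0.209), supporting replicate 2 (0.0689) or supporting replicate 3 (0.0658). Slc16a3, which encodes the lactate exporter MCT4, was lower in germ cells in 4 of 6 comparisons, by 0.55 to 0.77. Only the XY call at TS34 held without each array in turn: at TS13 the XX call was lost without germ replicates 1 or 2 or supporting replicates 1 or 2 (adjusted p 0.056 to 0.113), at TS24 without germ or supporting replicate 1 (0.193 and 0.0587), and at TS34 without germ replicates 2 or 3 or supporting replicates 1 or 3 (0.0899 to 0.0933). Slc2a1, which encodes the widespread glucose transporter GLUT1, was higher in germ cells only in XY at TS13 (0.66 ± 0.21) and TS34 (0.80 ± 0.21), and the TS13 call was lost without XY germ replicate 3 (0.41, adjusted p = 0.175) and after quantile normalization (0.27, adjusted p = 0.301).

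The 3 phosphofructokinase genes did not move together. Pfkp, the platelet isozyme, was higher in germ cells in 5 of 6 comparisons. Its level ran from 6.56 over a median of 9.08 to 10.03 in germ cells and from 5.41 over 6.48 to 7.27 in supporting cells. The ranges met through the germ cells of TS34, and the difference shrank from 3.41 ± 0.24 in XX at TS13 (adjusted p = 4.71e-17) to 0.54 ± 0.24 at TS34 (adjusted p = 0.0868). In XY at TS34 it was 0.71 ± 0.24, and that call was lost without germ replicates 2 or 3 or supporting replicates 1 or 3 (adjusted p 0.0507 to 0.185). Pfkl, the liver isozyme, was lower in germ cells by 0.55 to 1.10, and the smallest of these, in XX at TS13, lost its call without germ or supporting replicate 2 or 3 (adjusted p 0.0633 to 0.113). Pfkm, the muscle isozyme, was called once, lower in XY germ cells at TS24 (-0.66 ± 0.22, adjusted p = 0.0188, and 0.0662 without germ replicate 1). In XX at TS13 it was called lower only under other processing. These runs were quantile normalization (-0.73, limma adjusted p = 0.00227), median centring (-0.61, 0.0125) and the filter at the 50th percentile (-0.55, 0.0487).

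Tpi1, which interconverts the triose phosphates, ran from 8.27 to 10.15 with a median of 9.43 in germ cells and from 10.16 to 11.17 with a median of 10.75 in supporting cells, so that the ranges stood apart by the last decimal. Of the 2 aldolase genes, Aldoc was lower in germ cells in 4 comparisons and Aldoa in 2, both at TS34. Each Aldoc call was lost without at least 1 array: in XX at TS13 without supporting replicate 3 (-0.68, adjusted p = 0.0665), in XX at TS24 without germ replicate 2 (-0.64, 0.191), in XX at TS34 without germ replicates 2 or 3 or supporting replicates 1 or 2 (-0.70 to -0.39, 0.0673 to 0.35), and in XY at TS13 without germ replicate 2 or supporting replicate 1 (-0.68 and -0.50, 0.0677 and 0.201). The Aldoa call in XY was lost without germ replicate 1 (-0.37, adjusted p = 0.212) or supporting replicates 1 or 2 (0.0933 and 0.133), and that in XX held. Pkm, the pyruvate kinase gene of growing tissues, was higher in germ cells in 3 comparisons, by 1.11 ± 0.22 in XX at TS24 and by 0.69 ± 0.20 in XX and 0.51 ± 0.20 in XY at TS13. After quantile normalization both TS13 differences were no longer called (0.35 and 0.06), the XY call was also lost without germ replicates 1 or 3 or supporting replicates 2 or 3 (adjusted p 0.0503 to 0.171), and the second probe set of Pkm gave 0.12 in XX at TS24, not called.

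Both lactate dehydrogenase genes among the members were lower in germ cells throughout. Ldhc, a lactate dehydrogenase gene outside the members, was called higher in germ cells in each of the matched comparisons. Ldhb ran from 9.94 over a median of 10.30 to 10.76 in germ cells and from 11.12 over 12.07 to 12.69 in supporting cells, without overlap. Its differences lay between -2.20 and -1.11. Ldha ran from 7.04 over 7.98 to 9.37 in germ cells and from 9.07 over 9.96 to 10.77 in supporting cells, where the overlap came from the first XX germ array at TS13. In XX germ cells the gap of Ldha stayed between -1.32 and -1.21, while in XY it went from -1.69 ± 0.24 at TS13 to -2.86 ± 0.24 at TS24 and -2.37 ± 0.24 at TS34 (adjusted p between 2.08e-14 and 7.69e-08). The XY supporting cells changed mouse line between TS13 and TS24, the XX ones did not, and the change of the gap was not tested. With the left-out array included, the XX gap of Ldha at TS24 was -0.58 and was not called (adjusted p = 0.249).

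At the gate of pyruvate to mitochondria, germ cells had the higher levels of the enzyme and of 2 of its kinases. Pdha1, an X-linked gene for the catalytic subunit of pyruvate dehydrogenase, ran from 9.28 over 9.92 to 10.63 in germ cells and from 7.81 over 8.36 to 8.78 in supporting cells. No array of one cell type entered the range of the other, and the differences lay between 1.35 and 1.87. Pdhb, for the other subunit of the same enzyme, was higher in germ cells in 3 comparisons, by 0.50 to 1.10. Its call in XX at TS13 was lost without germ replicate 2 (adjusted p = 0.129) or supporting replicate 3 (0.116), and that in XY at TS24 without germ replicates 2 or 3 or supporting replicates 1 or 3 (0.056 to 0.185). Among the kinases, Pdk1 was higher in germ cells in 4 comparisons and Pdk3 in 2, both in XX, and Pdk2 was lower in 2. Leaving out 1 array ended both Pdk2 calls (in XX at TS34 germ replicate 3 or supporting replicate 1, adjusted p = 0.0952 and 0.102; in XY at TS24 germ replicate 1 or supporting replicate 2, 0.05 and 0.0996). It also ended those of Pdk3 in XX at TS24 (germ replicate 2 or supporting replicate 3, 0.103 and 0.0689) and of Pdk1 in XX at TS13 (germ replicate 2 or supporting replicates 1 or 3, 0.107 to 0.156). Pdk4 was called in opposite directions: it was higher in germ cells of XY gonads at TS13 (1.74 ± 0.31) and TS24 (1.69 ± 0.31), and lower in germ cells of XX gonads at TS24 (-1.59 ± 0.35) and TS34 (-1.81 ± 0.31). Of the PFKFB genes, Pfkfb3 was higher in germ cells in 4 comparisons and Pfkfb2 in 3, whereas Pfkfb4 was called in none (in XX at TS24, -0.43; -0.50 and called after quantile normalization, adjusted p = 0.0295, and -0.49 after median centring, 0.0352). Ppargc1a was lower in germ cells in 4 comparisons, at 5.27 to 6.79 in germ and 5.71 to 9.87 in supporting cells. Hk2 and Pgam1 were lower in 3 each, and Pgam2 and Pgk1 in 2 each. Every Pgam1 and Pgk1 call was lost without at least 1 array, as were those of Hk2 and Ppargc1a in XX at TS34. The second probe set of Ppargc1a was not called at TS34 in either sex. No call was made in the 6 comparisons for Eno2, Fbp1 and Fbp2, nor for the brightest probe set of Hk1, which the annotation also links to another gene. The second Hk1 probe set, described with that gene, was lower in germ cells in 4.

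**Figure D1:**
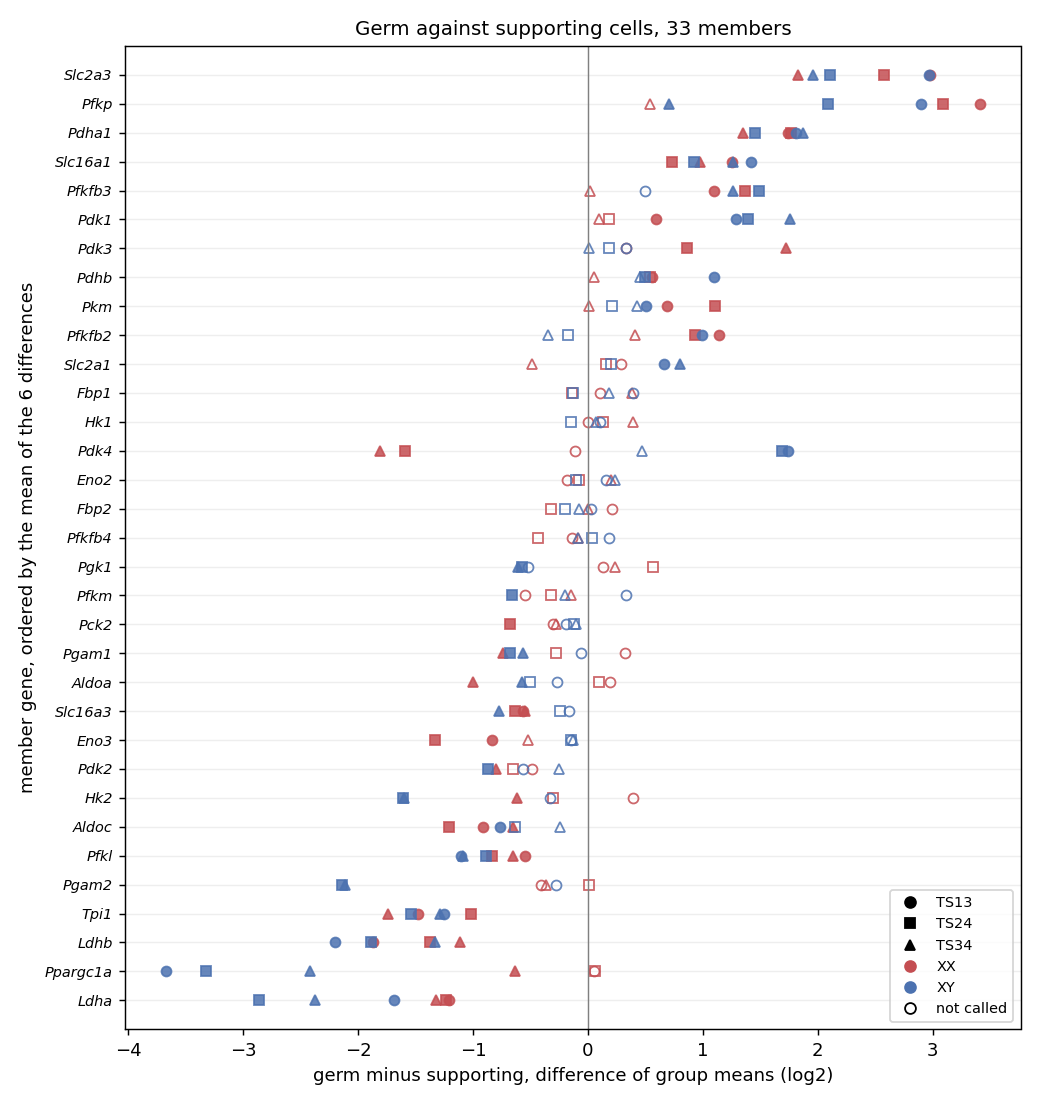
Difference of group means between germ and supporting cells (log2, x axis) for each of the 33 members (y axis, ordered by the mean of the 6 differences), with 1 symbol for each sex and stage; filled symbols passed an adjusted p of 0.05. Slc2a3 lies at 1.83 or above and Ldha at -1.21 or below in all 6 comparisons, and Pdk4 lies on both sides of 0.

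At TS13 the scaling of the arrays moved the counts of members and of all genes toward lower levels in germ cells. In XX at TS13, 9 members were called higher and 7 lower, against 6 and 8 after quantile normalization, while the counts over all tested genes went from 3539 and 1811 to 2867 and 2645. In XY at TS13, 10 and 6 members became 8 and 11, and 4121 and 1577 of all genes became 2729 and 2737. With median centring, XY at TS13 gave 9 and 8 members, and 3391 and 2295 of all genes. In XY at TS34 the members stayed at 7 higher and 11 lower under either scaling. Immediate-early and heat-shock genes that respond to tissue dissociation had a mean level of 8.34 to 9.60 in the supporting cell arrays and of 6.85 to 8.09 in the germ cell arrays, over 9 genes. Their part in the cell type differences was not tested.

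Supporting cells of XX and XY gonads differed most in Ppargc1a and Pdk4. Ppargc1a encodes PGC-1alpha, a transcriptional coactivator of mitochondrial and gluconeogenic genes. At TS13 its level was 5.98, 5.82 and 5.71 in XX and 9.53, 9.80 and 9.87 in XY supporting cells. At TS24 it was 5.96, 6.28 and 5.98 in XX and 9.15, 9.19 and 9.09 in XY. At TS34 it was 6.21, 6.33 and 5.96 in XX and 8.30, 8.55 and 8.22 in XY. All XY arrays lay above all XX arrays at each stage, and the XY arrays of TS34 lay below those of the earlier stages. The XX levels lay below the median of every array (6.41 to 6.84), and the deposited values hold no detection call, so no fold is given. The difference was 3.90 ± 0.23 at TS13 (limma adjusted p = 1.45e-18), 3.07 ± 0.23 at TS24 (adjusted p = 1.04e-15) and 2.19 ± 0.23 at TS34 (adjusted p = 7.81e-11). The sex difference at TS34 was smaller than at TS13 by 1.72 ± 0.32 (adjusted p of the interaction = 2.02e-04). The TS13 comparison was made within the Sry-EGFP line, and the comparisons at TS24 and TS34 were made across lines. A dimmer probe set of the same gene gave 1.91 ± 0.24 at TS13 (adjusted p = 5.88e-08) and 1.91 ± 0.24 at TS24 (adjusted p = 7.09e-09), but 0.43 ± 0.24 at TS34, where it was not called (adjusted p = 0.297). In germ cells no sex difference of Ppargc1a was called, and the difference at TS34 was 0.40 ± 0.23.

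Pdk4, a kinase that inhibits pyruvate dehydrogenase and is known to rise in fasting tissues, ran the other way. At TS13 it was 7.42, 6.83 and 6.62 in XX and 5.66, 5.82 and 5.57 in XY. At TS24 it was 9.02, 8.42 and 8.59 in XX and 6.19, 5.43 and 5.32 in XY. At TS34 it was 8.65, 7.48 and 8.05 in XX and 5.55, 5.64 and 6.05 in XY. The XX arrays were higher than the XY arrays at every stage, without overlap. All XY levels lay below the lowest array median of 6.41, without a detection call. The difference, XY minus XX, was -1.28 ± 0.31 at TS13 (adjusted p = 0.00742), -3.03 ± 0.31 at TS24 (adjusted p = 4.73e-11) and -2.31 ± 0.31 at TS34 (adjusted p = 7.32e-08). The TS13 call was lost without XX replicate 1 (-1.04, adjusted p = 0.101). Within XX supporting cells, all of 1 line, Pdk4 was the only member called between TS13 and TS24, up by 1.72 ± 0.31 (adjusted p = 1.92e-04), where 3.37% of all tested genes were called, 2.6% higher and 0.768% lower. Among the markers in this step, 2 of 9 dissociation-response genes (Egr1 and Ier2) and 3 of 7 granulosa markers (Lgr5, Fst and Irx3) were higher. The stromal Pdgfra (1 of 6) and the Leydig cell gene Cyp11a1 (1 of 4) were lower. Their part in the rise of Pdk4 was not tested.

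At TS13 these 2 genes were the only members called by sex in supporting cells, against 3.78% of all tested genes, 1.84% higher and 1.94% lower in XY. After quantile normalization 5 members were called there, 4 of them higher in XY: Ppargc1a, Hk2 (0.85), Pfkfb3 (0.79) and Pfkl (0.60), while all genes went from 323 higher and 341 lower to 566 and 353. At TS24, 9 of 33 were called (15.3% of all tested genes), 7 higher (9.75% of all) and 2 lower (5.58%) in XY, and at TS34, 7 (14% of all tested genes), 5 higher (8.24%) and 2 lower (5.74%). With median centring, 12 members were called at TS34, 10 higher and 2 lower, and all genes went from 1448 higher and 1008 lower to 1978 and 1043.

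Pgam2, the muscle form of phosphoglycerate mutase, and Hk2, the inducible hexokinase, were not called between the sexes at TS13 and were higher in XY later. The TS13 comparison lay within the Sry-EGFP line and the later ones crossed lines. Stage and mouse line therefore cannot be told apart in this change. Pgam2 was 7.18, 7.36 and 7.16 in XX and 7.35, 7.65 and 6.88 in XY supporting cells at TS13. At TS24 it was 7.47, 7.69 and 6.98 in XX and 8.44, 9.48 and 8.79 in XY. At TS34 it was 7.13, 6.96 and 7.28 in XX and 9.02, 9.28 and 9.37 in XY. The sexes overlapped at TS13 and stood apart at the later stages. The differences were 0.06 ± 0.23, 1.52 ± 0.23 (adjusted p = 6.96e-07) and 2.10 ± 0.23 (adjusted p = 2.24e-10), and the gain from TS13 to TS34 was itself called (2.04 ± 0.32, adjusted p = 9.16e-06). Hk2 was 6.99, 6.87 and 7.34 in XX and 7.64, 8.03 and 7.69 in XY at TS13. At TS24 it was 7.43, 7.58 and 7.56 in XX and 9.10, 8.59 and 8.77 in XY. At TS34 it was 7.30, 6.76 and 7.28 in XX and 8.54, 8.47 and 8.46 in XY. The XY arrays of Hk2 lay above the XX arrays at all 3 stages, and the difference was called at TS24 (1.29 ± 0.23, adjusted p = 2.21e-05) and TS34 (1.38 ± 0.23, adjusted p = 7.43e-06), not at TS13 (0.71 ± 0.23, adjusted p = 0.0768).

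Aldoc, the brain form of aldolase, was lower in XY supporting cells. It was 8.34, 8.27 and 8.64 in XX and 7.54, 7.14 and 7.19 in XY at TS24, and 8.22, 7.73 and 7.57 in XX and 6.84, 6.91 and 7.18 in XY at TS34. The groups did not overlap at either stage, with differences of -1.12 ± 0.26 (adjusted p = 9.05e-04) and -0.86 ± 0.26 (adjusted p = 0.0142). The TS34 call was lost without XX replicate 1, XY replicate 1 or XY replicate 2 (adjusted p = 0.126, 0.0688 and 0.0545).

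The remaining calls in supporting cells were smaller, and each was lost without at least 1 array. Ldhb was higher in XY by 0.74 ± 0.20 at TS24 and by 0.57 ± 0.20 at TS34 (adjusted p = 0.00598 and 0.0487). Its second probe set gave 0.11 at TS24, where the call was also lost without XX replicate 3 (adjusted p = 0.145) or XY replicate 2 (0.0567). The TS34 call was lost without any 1 of the 6 arrays (adjusted p 0.0542 to 0.169). Pkm was higher in XY by 0.56 ± 0.20 at TS24 and 0.61 ± 0.20 at TS34 (adjusted p = 0.0426 and 0.0248), and lost the call at each stage without any array but XX replicate 1 (highest adjusted p = 0.179, without XX replicate 3 at TS24, and 0.116, without XX replicate 2 at TS34). Pfkp was higher by 0.84 ± 0.24 at TS24 with overlapping arrays, and lost its call without XX replicate 3 (adjusted p = 0.2) or XY replicate 1 (adjusted p = 0.106). Pgam1, the widely expressed phosphoglycerate mutase, was higher by 0.66 ± 0.20 at TS24 and lost its call without XX replicate 1 (adjusted p = 0.055) or XY replicate 1 (adjusted p = 0.212).

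Other cells' markers moved with sex in these samples. The mean level over 4 steroidogenic Leydig cell markers (Cyp11a1, Hsd3b1, Star and Cyp17a1) was 6.91 to 7.21 in XY and 5.66 to 5.74 in XX supporting cells at TS34, and all 4 were called higher; at TS13 1 was called lower and at TS24 1 higher. All 8 Sertoli cell markers were higher in XY at TS24 and TS34, and 6 of 8 at TS13. At TS34 4 of 9 dissociation-response genes (Atf3, Fos, Dusp1 and Fosb) were lower in XY, with a mean level of 8.43 to 8.66 against 9.14 to 9.60 in XX. Of 7 markers of the granulosa lineage, 5 were lower in XY and 1 higher (Lgr5) at TS13, within 1 mouse line, 5 were lower at TS24 and 6 at TS34. Of 6 stromal markers, Pdgfra was higher and Nr2f2 lower in XY at TS13 and at TS24. At TS13 Pdgfra was at 9.55 to 9.86 in XY and 7.67 to 8.16 in XX. Of 5 erythroid markers, 2 were higher in XY at TS24 (Hba-x and Alas2) and 1 at TS34 (Alas2). The part of these markers in the members' differences was not tested.

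**Figure D2:**
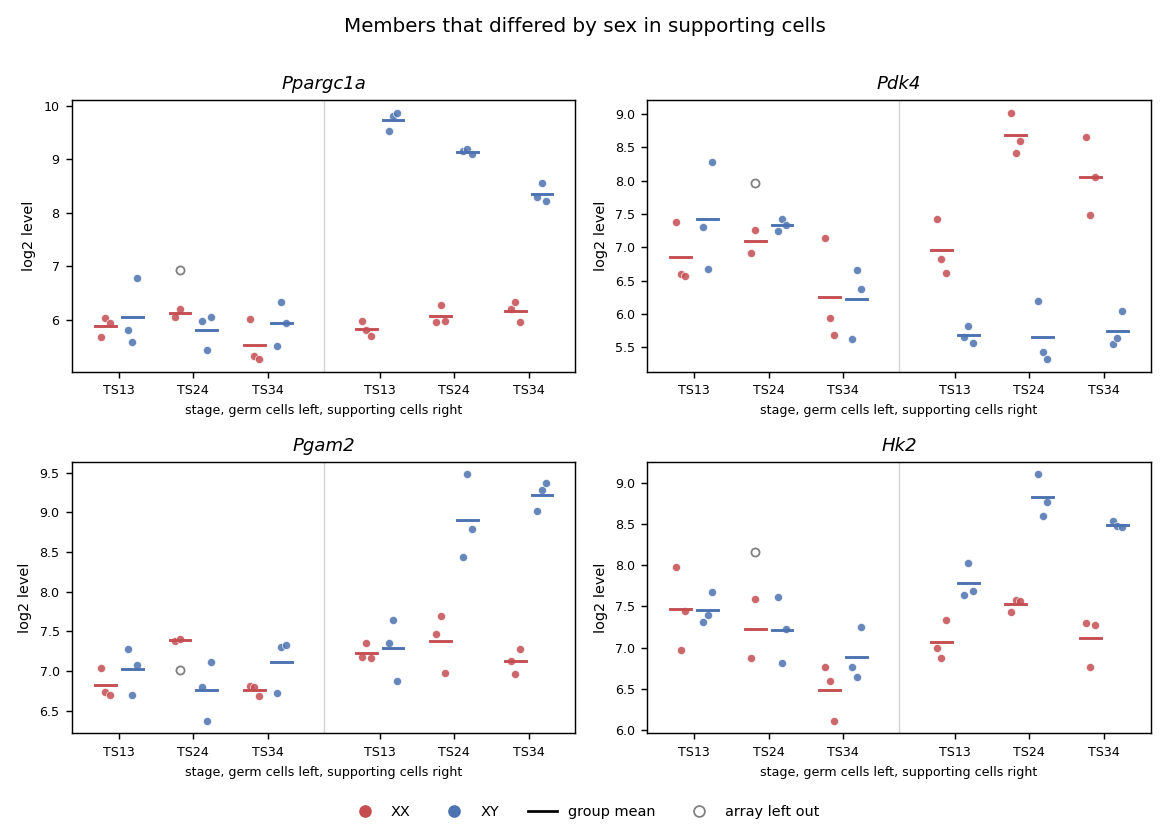
Level of Ppargc1a, Pdk4, Pgam2 and Hk2 in each array (log2, y axis) by stage (x axis), germ cells on the left and supporting cells on the right of each panel, XX in red and XY in blue with a line at the group mean; the open grey circle is the array left out. In supporting cells the XY points of Ppargc1a lie between 8.22 and 9.87, all above the XX points, and those of Pdk4 lie below the XX points at each stage.

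The XY step from TS13 to TS24, which also changes the mouse line, gave 5 called members, 4 higher and 1 lower, where 16.8% of all tested genes were called, 15.1% higher and 1.7% lower. Pgam2 rose by 1.61 ± 0.23 (adjusted p = 4.80e-07) and Hk2 by 1.03 ± 0.23 (adjusted p = 9.11e-04). Pgam1 rose by 0.69 ± 0.20 and lost the call without XY replicate 1 of TS24 (0.47, adjusted p = 0.152), Pfkfb2 rose by 0.66 ± 0.21 and lost it without XY replicate 3 of TS13 or replicates 2 or 3 of TS24 (adjusted p 0.0872 to 0.209), and Pfkfb3 fell by 0.62 on the log2 scale and lost it without replicates 1 or 2 of TS13 or 2 or 3 of TS24 (adjusted p 0.0558 to 0.288). Quantile normalization changed the split to 2 higher and 4 lower, and that of all genes from 2658 higher and 299 lower to 1176 and 803. Among the markers in this step, 5 of 8 Sertoli cell markers were higher, 3 of 7 granulosa markers lower and Lgr5 higher, and the stromal Pdgfra and Nr2f2 lower, 2 of 6. The dissociation-response genes Egr1 and Junb (2 of 9), the erythroid Alas2 (1 of 5), the endothelial Cdh5 (1 of 7) and the Leydig cell gene Hsd3b1 were higher and Cyp11a1 lower, and their part in the members' step was not tested. From TS24 to TS34 no member was called in XX supporting cells (0.643% of all tested genes, 0.176% higher and 0.467% lower) or in XY (1.06%, 0.159% higher and 0.905% lower) by limma, with 6 members at an unadjusted p under 0.05 in each. Ppargc1a went down by 0.79 ± 0.23 in XY in that step, short of the threshold (adjusted p = 0.0852). Its second probe set fell in that step by 1.65 on the log2 scale (-1.65 ± 0.24, adjusted p = 1.49e-05), and the mean of its probe sets gave -1.22 (adjusted p = 1.35e-04).

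The 250 bases before a RefSeq start (GRCm38.p6) are given for 5 members whose level differed by sex or stage, as the stretch in which promoter elements of these genes can be read. Ppargc1a and Pdk4 differed by sex in opposite directions in supporting cells, and Hk2 was higher in XY supporting cells at TS24 and TS34. Slc2a1 differed between the sexes in germ cells at TS34, and the chosen probe set of Pgk1 fell in XX germ cells. Capitals mark ACGTG on either strand, the core that hypoxia-inducible factors bind and which also lies within the E-box CACGTG. The stretches are chr5:51567726-51567975 on the minus strand for Ppargc1a, chr6:5496279-5496528 on the minus strand for Pdk4, chr6:82774455-82774704 on the minus strand for Hk2, chr4:119108495-119108744 on the plus strand for Slc2a1 and chrX:106186850-106187099 on the plus strand for Pgk1. The start used for Ppargc1a is the 1 listed for it and lies within the span of the annotated gene.
Ppargc1a: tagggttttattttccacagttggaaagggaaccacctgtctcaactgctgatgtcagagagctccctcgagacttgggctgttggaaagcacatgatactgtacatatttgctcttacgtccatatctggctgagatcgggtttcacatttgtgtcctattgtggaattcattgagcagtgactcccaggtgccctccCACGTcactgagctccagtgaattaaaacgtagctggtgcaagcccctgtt
Pdk4: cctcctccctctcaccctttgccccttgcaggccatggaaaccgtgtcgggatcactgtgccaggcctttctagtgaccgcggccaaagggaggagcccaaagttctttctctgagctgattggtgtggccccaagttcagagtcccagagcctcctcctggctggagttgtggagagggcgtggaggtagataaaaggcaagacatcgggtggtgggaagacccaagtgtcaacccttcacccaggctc
Hk2: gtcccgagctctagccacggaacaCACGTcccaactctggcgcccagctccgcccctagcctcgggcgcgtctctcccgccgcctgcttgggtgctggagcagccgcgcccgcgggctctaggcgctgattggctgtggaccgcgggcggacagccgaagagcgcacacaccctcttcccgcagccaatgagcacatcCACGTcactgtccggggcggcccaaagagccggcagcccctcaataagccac
Slc2a1: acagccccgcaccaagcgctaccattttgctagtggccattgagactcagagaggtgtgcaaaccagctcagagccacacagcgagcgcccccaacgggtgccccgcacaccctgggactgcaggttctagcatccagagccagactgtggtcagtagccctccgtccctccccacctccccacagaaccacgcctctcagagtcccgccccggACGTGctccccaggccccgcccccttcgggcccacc
Pgk1: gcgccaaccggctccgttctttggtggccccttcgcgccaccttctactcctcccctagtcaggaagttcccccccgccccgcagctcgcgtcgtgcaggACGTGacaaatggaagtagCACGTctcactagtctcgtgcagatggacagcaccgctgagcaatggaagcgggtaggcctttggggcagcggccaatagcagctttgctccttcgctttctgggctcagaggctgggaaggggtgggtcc
The marked letters occurred once in the stretch of Ppargc1a and of Slc2a1, at 2 places in those of Hk2 and Pgk1, and not in that of Pdk4. Over windows of 300 bases (250 before to 50 after a start), 36 of the 37 listed genes had an entry. ACGTG was found in 24 of 55 of their windows (43.6%) and in 6447 of 32851 windows of all genes (19.6%). The GC box GGGCGG was found in 49.1% of the members' windows and in 35.7% of all, and CACGTG in 12.7% and 7.15%. A match is a string of letters and not evidence of binding, and the base composition of the windows was not matched.

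In XX germ cells 8 of 33 members fell from TS24 to TS34 and none rose, where 8.88% of all tested genes were called, 7.02% lower and 1.86% higher. The 8 were Pfkp, Pfkfb3, Pkm, Slc2a3, Pgk1, Aldoa, Tpi1 and Pgam1, which act between the uptake of glucose and the making of pyruvate. The median difference of the 33 members was -0.42, against -0.15 for all tested genes. All these arrays came from 1 mouse line, but the TS24 group rested on 2 arrays. After quantile normalization these 8 were still called, Pdk3 was called higher (0.90, adjusted p = 0.015), the medians were -0.22 and 0.00, and all genes went from 327 higher and 1233 lower to 818 and 800. Median centring also called Pdk3 higher (0.83).

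In XX germ cells Pfkp stood at 9.69, 9.46 and 9.92 at TS13, 9.08 and 9.26 at TS24, and 7.07, 6.63 and 6.56 at TS34. The drop of 2.42 on the log2 scale (-2.42 ± 0.27, limma adjusted p = 8.40e-09) was the largest of the members in this step. In XY germ cells it was at 9.27, 8.70 and 9.06 at TS24 and at 6.85, 7.79 and 7.43 at TS34, and also fell (-1.65 ± 0.24, adjusted p = 8.36e-06). In both sexes all TS34 arrays lay below all TS24 arrays. Slc2a3 was at 8.77 and 8.76 at TS24 and at 8.09, 7.05 and 7.47 at TS34 in XX (-1.22 ± 0.27, adjusted p = 0.0018). With the left-out array, which read 7.04, the difference was -0.65 and was not called (adjusted p = 0.153).

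Pfkfb3, which encodes the PFKFB enzyme with the strongest kinase activity, fell in XX from 8.93 and 9.31 to 8.01, 7.23 and 7.30 (-1.61 ± 0.24, adjusted p = 7.25e-06). In XY it stayed at 9.54, 9.22 and 9.30 at TS24 and 8.85, 9.32 and 9.41 at TS34 (-0.16 ± 0.21, not called). Pkm fell in XX from 11.11 and 11.62 to 10.14, 9.88 and 10.00 (-1.36 ± 0.22, adjusted p = 2.57e-05). In XY Pkm was at 11.34, 10.58 and 11.14 at TS24 and at 10.63, 11.20 and 11.29 at TS34, with overlapping stages and a difference of 0.02 ± 0.20. Whether the step differed between the sexes was not tested. The XX drop of Pkm rested on its main probe set: a second probe set of Pkm gave -0.26 (adjusted p = 0.49).

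The other 4 fell by between 0.87 and 1.06 on the log2 scale, and each lost its call without at least 1 array. Pgk1, phosphoglycerate kinase, which makes the first ATP of the pathway, went from 11.54 and 11.93 to 11.17, 10.41 and 10.42 (-1.06 ± 0.24, adjusted p = 0.00287; 0.0985 without TS24 replicate 2). The annotation gives 3 probe sets to Pgk1 with the same transcript records, and the one chosen over all 36 arrays had a mean of 11.14 over the 35 arrays kept, against 11.15 for the next. That next probe set, the brightest without the left-out array, gave -0.30 and no call (adjusted p = 0.48), so the call rests on which was chosen, and signal from gene copies cannot be told apart. The third probe set had a mean of 10.85 at TS24 and 10.42 at TS34 in XX germ cells. Aldoa, the main aldolase, went from 11.63 and 11.01 to 10.57, 10.25 and 10.05 (-1.03 ± 0.24, adjusted p = 0.00364; 0.131 without TS24 replicate 1). Tpi1 went from 9.73 and 9.82 to 9.13, 8.84 and 8.27 (-1.03 ± 0.25, adjusted p = 0.00663; 0.0798 without TS24 replicate 2 and 0.102 without TS34 replicate 3). In all 3 genes the TS34 arrays lay below the TS24 arrays. Pgam1 fell by 0.87 ± 0.22 (adjusted p = 0.00963) and lost the call without TS24 replicate 1 (0.0519), TS24 replicate 2 (0.0868) or TS34 replicate 3 (0.122).

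In the XY step from TS24 to TS34 only Pfkp and Pdk4 were called, both lower, where 2.73% of all tested genes were called, 1.75% lower and 0.985% higher. Pdk4 went from 7.25, 7.42 and 7.33 to 5.62, 6.66 and 6.37 without overlap (-1.11 ± 0.31, adjusted p = 0.0368), and the call was lost without any 1 of TS24 replicates 1, 2 and 3 and TS34 replicates 1 and 3 (adjusted p 0.06 to 0.404). From TS13 to TS24 no member was called in germ cells of either sex, where limma called 1.21% of all tested genes in XX (0.979% higher, 0.233% lower) and 1.5% in XY (0.837% higher, 0.66% lower); 2 members in XX and 6 in XY had an unadjusted p under 0.05.

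Markers moved with the XX step as well. Of the germ cell list Nanog and Sox2, 2 of 8, were lower at TS34, as were 2 of 7 endothelial markers (Pecam1 and Tie1), 1 of 6 stromal (Dcn), 1 of 6 macrophage (Aif1), 1 of 5 erythroid (Hbb-y), 1 of 8 Sertoli cell (Sox9) and 2 of 9 dissociation-response genes (Egr1 and Junb). Pecam1 was itself called higher in germ than in supporting cells in each matched comparison. At TS34 it was at 9.52 to 10.04 in XX germ cells and 6.85 to 6.96 in XX supporting cells. The dissociation-response list had a mean level of 7.51 to 7.63 at TS24 and 6.85 to 7.44 at TS34. Their part in the members' fall was not tested.

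**Figure D3:**
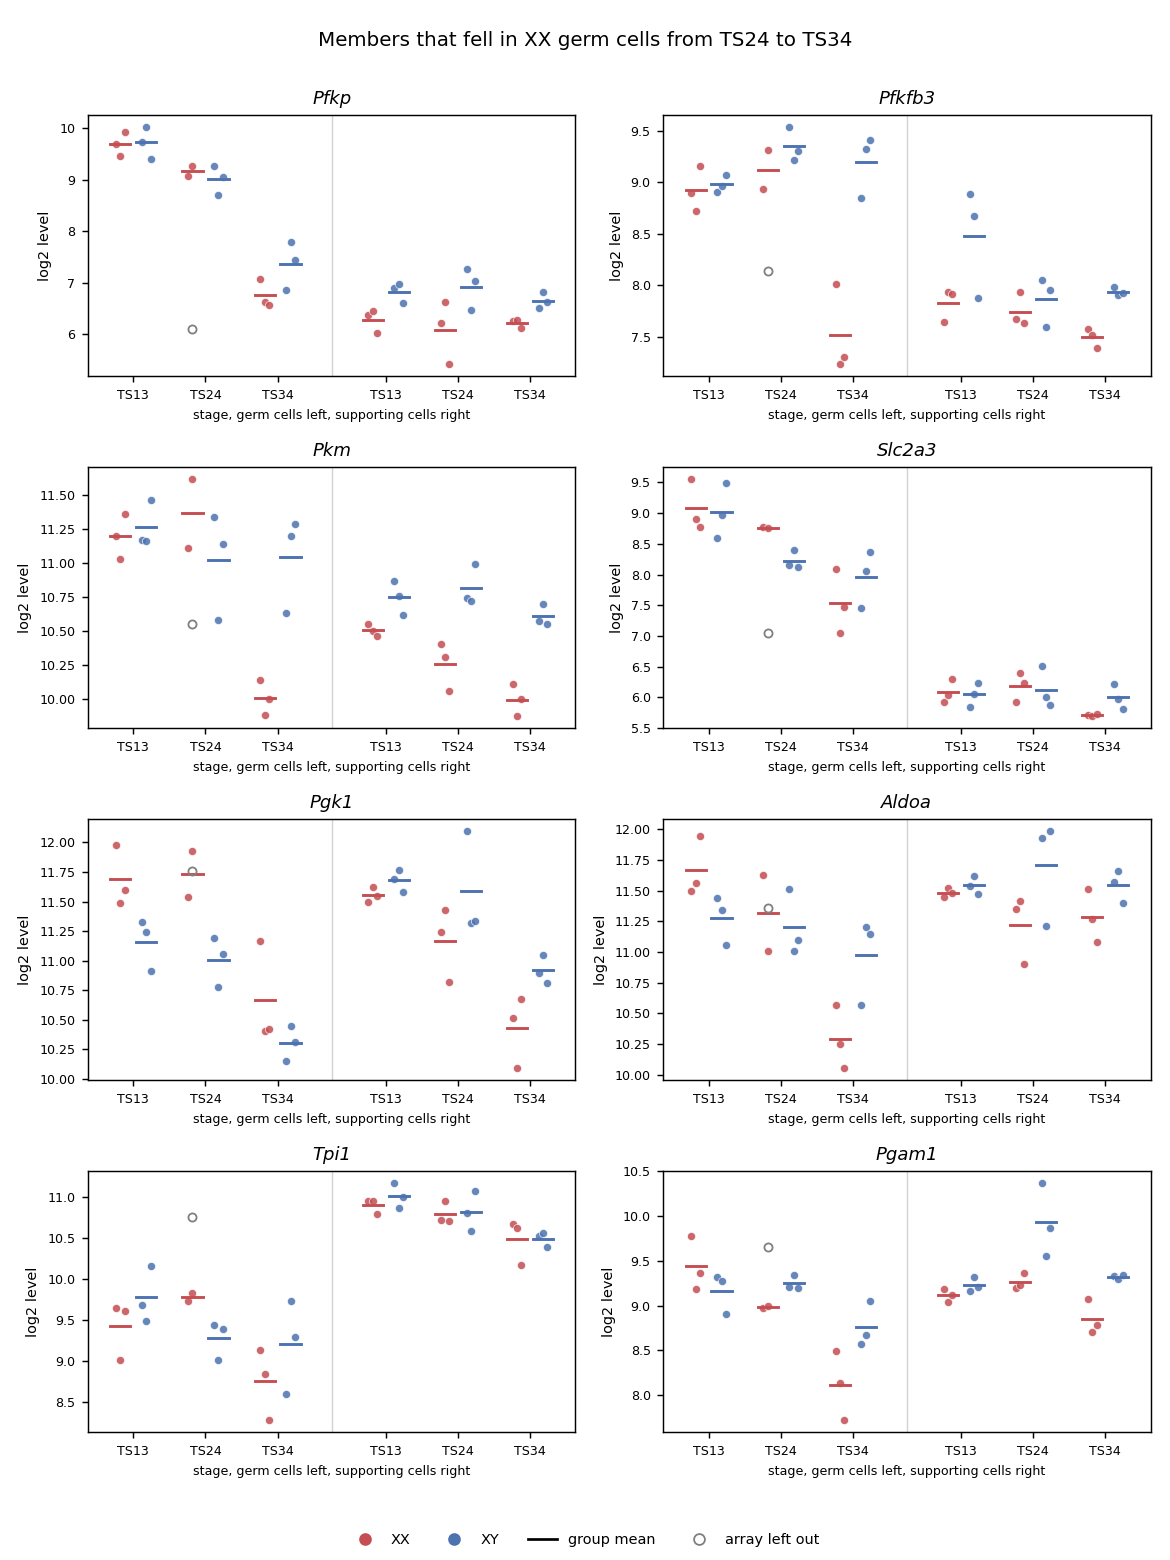
Level in each array (log2, y axis) of the 8 members that fell in XX germ cells from TS24 to TS34, by stage (x axis), germ cells on the left and supporting cells on the right of each panel, XX in red and XY in blue with a line at the group mean; the open grey circle is the array left out. Pfkfb3 and Pkm drop in XX germ cells at TS34 to between 7.23 and 8.01 and between 9.88 and 10.14, while the XY germ cells stay above them.

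By TS34 the XX and XY germ cells differed in 8 of 33 members, where 10.5% of all tested genes were called (6.04% higher and 4.46% lower in XY), and the median difference of the members, 0.07, was next to that of all genes, 0.06. Higher in XY were Pfkfb3, Pdk1, Slc2a1, Pkm, Aldoa and Pgam1, and higher in XX were Pdk3 and Pfkfb2. At TS13 limma called no member (0.0285% of all tested genes; 4 members had an unadjusted p under 0.05), and at TS24 only Ldha was (1.96% of all tested genes, 0.495% higher and 1.46% lower).

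Pfkfb3 at TS34 was 8.01, 7.23 and 7.30 in XX and 8.85, 9.32 and 9.41 in XY germ cells, 1.68 ± 0.21 or 3.21-fold higher in XY (limma adjusted p = 6.43e-08). The sexes did not overlap. At TS13 they did, with a difference of 0.05 ± 0.21, and the change in the sex difference between TS13 and TS34 was called (1.63 ± 0.30, adjusted p = 3.94e-04). Pkm at TS34 was 10.14, 9.88 and 10.00 in XX and 10.63, 11.20 and 11.29 in XY, without overlap (1.03 ± 0.20, adjusted p = 1.37e-04), and its second probe set gave 0.70 ± 0.19 (adjusted p = 0.00988).

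Slc2a1 at TS34 was 7.61, 7.75 and 7.90 in XX and 8.84, 8.98 and 9.15 in XY (1.23 ± 0.21, adjusted p = 1.64e-05). The XX arrays of Slc2a1 at TS34 were the lowest of all germ cell arrays, while the XY arrays lay within the range of 8.54 to 9.62 seen in XY at TS13. Pdk1, a pyruvate dehydrogenase kinase known as a target of hypoxia-inducible factors, was 8.16, 8.24 and 8.46 in XX and 9.75, 9.47 and 9.60 in XY (1.32 ± 0.21, adjusted p = 1.02e-05). Its sexes stood apart here and also at TS24, where it was 8.63 and 8.79 in XX and 9.15, 9.59 and 9.84 in XY, with a difference of 0.82 ± 0.24 short of the threshold (adjusted p = 0.059). Quantile normalization (0.76, adjusted p = 0.0454) and median centring (0.83, adjusted p = 0.0377) each called it at TS24.

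Pdk3, an X-linked kinase of the same family, went the other way, at 9.90, 10.51 and 10.08 in XX and 8.60, 9.23 and 9.49 in XY at TS34. The groups did not overlap, and the difference was -1.06 ± 0.24 (adjusted p = 0.00129). Pdk1 and Pdk3 encode kinases of the same enzyme, and each was higher in a different sex. Aldoa at TS34 was 10.57, 10.25 and 10.05 in XX and 10.57, 11.20 and 11.15 in XY, where the first array of each sex had the same level. Its call (0.68 ± 0.21, adjusted p = 0.0287) was lost without XX replicates 2 or 3 or XY replicates 2 or 3 (adjusted p 0.0911 to 0.189). Pgam1 was higher in XY by 0.65 ± 0.20 and lost the call without XX replicates 2 or 3 or XY replicate 3 (adjusted p 0.0639 to 0.282). Pfkfb2 was lower in XY (-0.70 ± 0.21) and lost it without XX replicates 1 or 3 or XY replicates 1 or 2 (adjusted p 0.0555 to 0.136).

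At TS24 Ldha was 8.40 and 8.89 in XX and 7.60, 7.31 and 7.78 in XY germ cells, without overlap (-1.08 ± 0.27, adjusted p = 0.0171). The call was lost without XX replicate 2 (-0.83, adjusted p = 0.421), which leaves 1 XX array, or without XY replicate 2 (-0.95, adjusted p = 0.128). In this TS24 comparison the stromal marker Dcn (1 of 6) was lower in XY, at 6.17 to 6.52 against 7.19 and 7.99 in XX, and the Sertoli cell marker Cst9 (1 of 8) was higher. Ldha itself was at 9.07 to 10.77 in the supporting cell arrays. Among the markers 2 of 8 of the germ cell list were higher and 1 lower in XY at TS34 (Pou5f1, Kit and Nanog were those called), and 2 of 8 Sertoli cell markers were higher (Hsd17b3 and Cst9). The part of these in the members' sex differences was not tested.

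**Figure D4:**
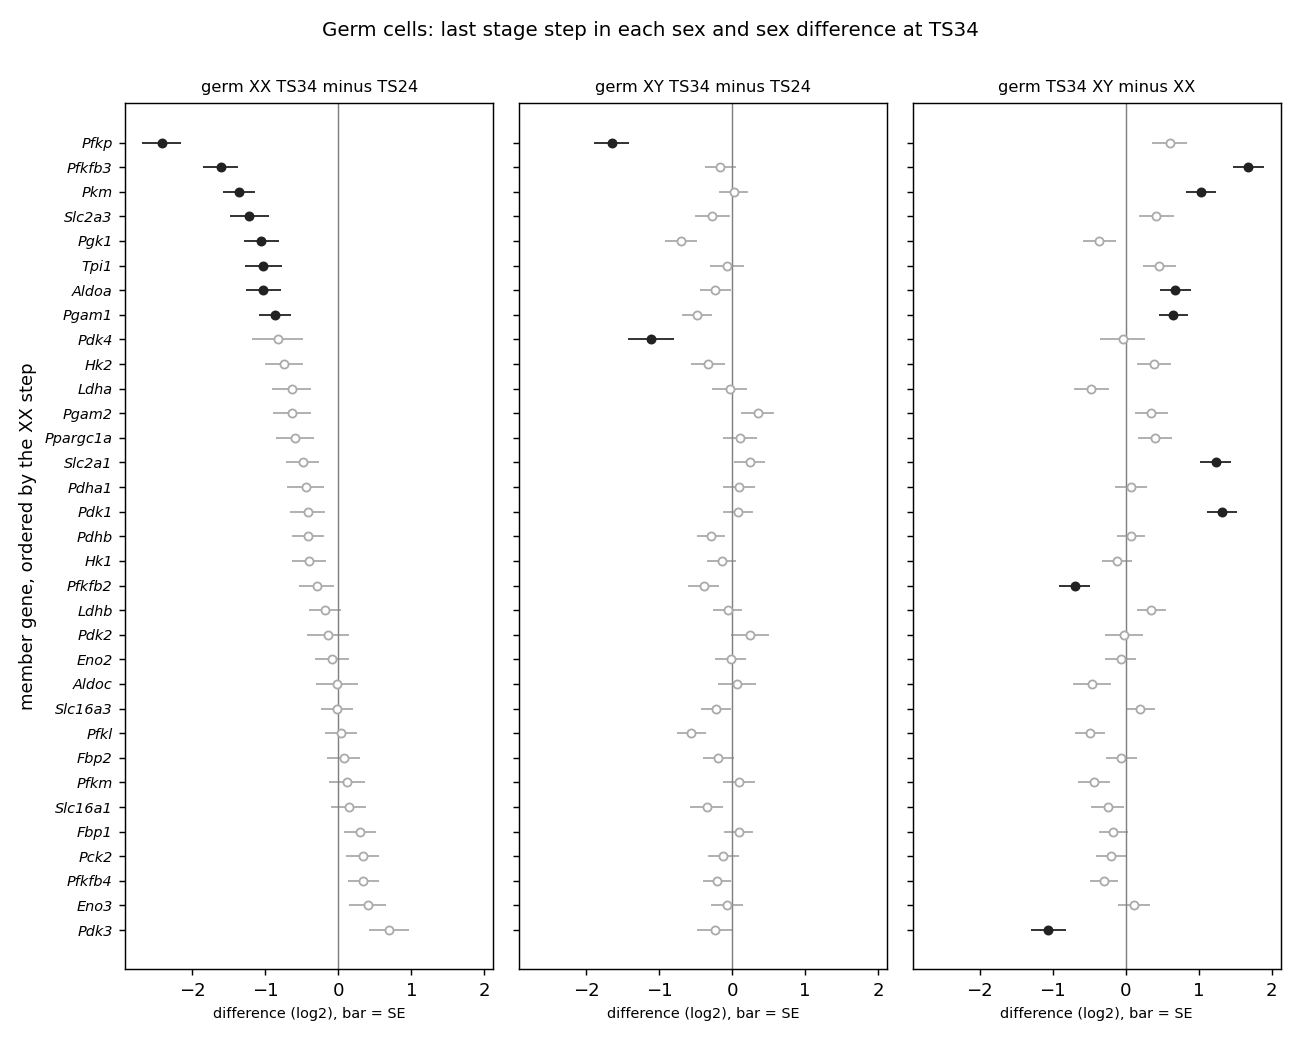
Difference and SE (log2, x axis) of each of the 33 members (y axis) in germ cells, for TS34 minus TS24 in XX (left) and XY (middle) and for XY minus XX at TS34 (right); filled points passed an adjusted p of 0.05. Pfkp has the lowest value on the left (-2.42) and in the middle (-1.65), and Pfkfb3 the highest on the right (1.68); the left and right panels share the XX arrays of TS34.

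The sex difference at TS34 differed between germ and supporting cells in 9 of 33 members, where 12.8% of all tested genes were called (5.82% higher, with 4 members, and 6.94% lower, with 5 members). Pdk4 gave the largest gap, at -0.04 ± 0.31 in germ cells and -2.31 ± 0.31 in supporting cells (interaction 2.28 ± 0.44, adjusted p = 1.26e-04). Ppargc1a, Pgam2 and Hk2 were raised in XY more in supporting than in germ cells, and Pfkfb3, Slc2a1 and Pdk1 more in germ than in supporting cells. Slc2a1, for example, differed by 1.23 ± 0.21 in germ cells and by -0.05 ± 0.21 in supporting cells (interaction 1.29 ± 0.29, adjusted p = 9.85e-04). The interaction of Ppargc1a (-1.79 ± 0.32) was not called with its second probe set (-0.20, adjusted p = 0.828). Supporting cells at TS34 compare 2 mouse lines and germ cells 1, so the cell type and the line cannot be told apart in these interactions.

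The hexokinase Hk1 needs a separate word. Its brightest probe set, with a mean level of 12.66, matches a single cDNA record that the annotation also gives to probe sets of Rpl17, a ribosomal protein gene, and it was called in no sex, stage or cell type comparison. The second Hk1 probe set, with a mean of 7.87 and the RefSeq transcripts of Hk1, correlated with the first at 0.27 over the arrays. It fell from TS24 to TS34 in germ cells by 1.14 on the log2 scale in XX (-1.14 ± 0.24, adjusted p = 0.00113) and by 1.36 in XY (-1.36 ± 0.21, adjusted p = 2.58e-05). In XY supporting cells it also fell in that step (-1.24 ± 0.21, adjusted p = 3.34e-04), after a rise of 0.85 ± 0.21 from TS13 to TS24 (adjusted p = 0.00323), and in XX supporting cells it fell from TS13 to TS24 (-0.90 ± 0.21, adjusted p = 0.00669). In supporting cells at TS24 it was higher in XY by 1.27 ± 0.21 (adjusted p = 6.78e-06). It was lower in germ than in supporting cells in 4 of 6 comparisons, in XX at TS13 (-0.65 ± 0.21) and TS34 (-1.10 ± 0.21) and in XY at TS24 (-1.29 ± 0.21) and TS34 (-1.41 ± 0.21).

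Some members were nearly level over all 35 arrays. Fbp1 and Fbp2, the fructose bisphosphatases of gluconeogenesis, ran from 4.89 to 5.71 and from 5.21 to 6.35. Eno2, the neuronal enolase, ran from 5.22 to 6.26 and Pfkfb4 from 5.41 to 6.24. All 4 lay below the lowest array median of 6.41. The deposited values hold no detection call, so steady low expression and no expression cannot be told apart for them. None of the 4 was called in any comparison, apart from Pfkfb4 between cell types under other scalings. Eno3, the muscle enolase, was called between cell types, lower in XX germ cells at TS13 (-0.83 ± 0.22) and TS24 (-1.33 ± 0.25), and after quantile normalization or median centring also by sex in supporting cells at TS24 (-0.64 and -0.57, adjusted p = 0.0232 and 0.0486) and in XX germ against supporting cells at TS34 (-0.58 and -0.56), and Pck2, the mitochondrial phosphoenolpyruvate carboxykinase, between cell types in XX at TS24 (-0.68 ± 0.23, lost without germ replicate 1 or supporting replicates 1 or 2, adjusted p 0.053 to 0.164).

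Genes next to the members in the pathway were counted from lists. Of 14 tested citrate cycle genes, 8 were higher and 1 lower in XX germ cells than in XX supporting cells at TS13, 8 and 1 at TS24, and 6 and 1 at TS34. Over all tested genes 20.1% were higher and 10.3% lower, 16.5% and 11.3%, and 17.2% and 13%. In XY the counts were 8 and 1, 4 and 1, and 1 and 1, where 23.5% of all genes were higher and 8.98% lower, 16.9% and 14.9%, and 16.8% and 12.1%. Idh2, mitochondrial isocitrate dehydrogenase, was the 1 lower in each, by -0.80 ± 0.22 in XX at TS13 and by -2.39 ± 0.22 in XY at TS34. Of 8 tested genes of pyruvate entry to mitochondria, 4 were higher and 1 lower in XY than in XX supporting cells at TS24 (9.75% and 5.58% of all tested genes), led by Pdpr, a regulatory subunit of the phosphatase that reactivates pyruvate dehydrogenase (1.57 ± 0.25, adjusted p = 3.38e-06), and Pcx, pyruvate carboxylase (1.19 ± 0.24, adjusted p = 1.14e-04). That comparison crosses mouse lines. At TS13, within 1 line, 0 of the 8 were called (1.84% of all tested genes higher and 1.94% lower).

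Of 15 hypoxia-response genes, 3 fell in XX germ cells from TS24 to TS34 and none rose, where 7.02% of all tested genes fell and 1.86% rose. The largest falls were those of Egln3, an oxygen-sensing prolyl hydroxylase (-1.09 ± 0.27, adjusted p = 0.00743), and Vegfa, a vascular growth factor (-0.85 ± 0.24, adjusted p = 0.0185). In XY germ cells the same step gave -1.14 ± 0.24 for Egln3 and -0.96 ± 0.22 for Vegfa, both called.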

How the data were processed

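RNA of 36 samples of sorted cells was hybridised to Affymetrix Mouse Gene 1.0 ST arrays. The deposited log2 values were made by RMA, per the submitters' processing notes; the software that ran it is not given in the sources used here. Array medians ran from 6.41 to 6.84, and the values were used without further normalization.

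Of 35557 probe sets, 21789 were annotated with 1 gene symbol, 1621 with several and 12147 with none. Older symbols were updated by Entrez identifier. A gene with several was read from its brightest by mean level over all 36 arrays. Genes above the 25th percentile of the array on at least 3 arrays were kept, 17571 of 19938. A model with 1 mean per group was fitted to all 12 groups in 35 arrays with limma 3.58.1 in R 4.3.3, with 23 residual degrees of freedom, and p-values were adjusted by Benjamini-Hochberg over all kept genes in each comparison. The steps were tested on simulated data. The number of arrays limits precision: between groups of 3 arrays the SE had a median of 0.211.

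Values per array or their range are given for members called in a sex or stage comparison with a difference of at least 1 (log2) and for the 10 members with the largest mean difference between cell types, and the others by range and counts. Of each neighbouring pathway list at most the 2 called genes with the largest difference in a comparison were named. The members and lists were chosen with earlier results of these data known. Alternatives were all 36 arrays, quantile normalization, median centring, no filter, a filter at the 50th percentile, the mean of all probe sets, a replicate block, leaving out each array, and, added after seeing the data, the second probe set. Interstitial and stromal cell samples of the study were not analysed here. Promoter windows came from RefSeq (GRCm38.p6).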

Additional observations from a re-analysis of the deposited data

Results flagged for a closer look

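Sex differences (XY minus XX) that changed with stage or cell type, by a limma test of the change itself, are given here as log2 values with SE. In germ cells the sex difference was larger toward XY at TS34 than at TS13 for Pfkfb3 (1.63 ± 0.30, adjusted p = 3.94e-04), Aldoa (1.08 ± 0.30, adjusted p = 0.0299) and Pkm (0.97 ± 0.28, adjusted p = 0.0331), and shifted toward XX for Pdk3 (-1.24 ± 0.34, adjusted p = 0.0228). In these germ cell changes 3.69% of all tested genes were called, and the calls of Aldoa, Pdk3 and Pkm were each lost without at least 1 array. The second probe set of Pkm gave 0.48 ± 0.27 and no call (limma adjusted p = 0.445). In supporting cells it grew for Pgam2 (2.04 ± 0.32, adjusted p = 9.16e-06) and shrank for Ppargc1a (-1.72 ± 0.32, adjusted p = 2.02e-04), where 4.88% of all tested genes were called and the TS34 arrays compare mouse lines.

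At TS34 the sex difference was further toward XY in germ than in supporting cells for Pdk4 (2.28 ± 0.44), Pdk1 (1.66 ± 0.30), Slc2a1 (1.29 ± 0.29) and Pfkfb3 (1.24 ± 0.30). It was further toward XY in supporting than in germ cells for Ppargc1a (-1.79 ± 0.32), Pgam2 (-1.75 ± 0.32), Pdk3 (-1.71 ± 0.34), Ldha (-1.06 ± 0.34, adjusted p = 0.027) and Hk2 (-0.98 ± 0.33, adjusted p = 0.0359). The calls of Ldha and Hk2 were each lost without at least 1 array, and that of Ppargc1a with its second probe set (-0.20).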

How the results depend on the processing

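No called member difference changed direction under any alternative run. Of 160 calls, 27 were lost with all 36 arrays, 9 after quantile normalization, 2 after median centring, 2 without a filter, 0 with the filter at the 50th percentile, 5 with the mean of all probe sets and 12 with the second probe set; leaving out single arrays lost a call in 168 cases and kept it in 856. Counts of called members moved by over 1.5 times as follows. With all 36 arrays, 3 were called by sex in germ cells at TS24, 1 from TS13 to TS24 in XX germ cells, 1 from TS24 to TS34 in XY germ cells, 3 from TS13 to TS24 in XY supporting cells, and 1 in the germ cell change of the sex difference. Quantile normalization and median centring gave 3 and 3 by sex in germ cells at TS24, 5 and 4 by sex in supporting cells at TS13, 2 and 2 from TS13 to TS24 in XY germ cells, and 2 and 2 in XX supporting cells; median centring gave 12 by sex in supporting cells at TS34. The filter at the 50th percentile gave 1 from TS13 to TS24 in XY germ cells. The second probe set gave 4 by sex in supporting cells at TS34, 2 from TS13 to TS24 in XX and 2 from TS24 to TS34 in XY supporting cells, and the mean of all probe sets 2 in the latter. Without single arrays the counts ran from 0 to 2 by sex in germ cells at TS24 and 5 to 9 at TS34; from 1 to 3, 6 to 9 and 4 to 6 by sex in supporting cells at TS13, TS24 and TS34; from 5 to 12 in XX germ cells from TS24 to TS34, 0 to 1 in XY germ cells from TS13 to TS24 and 1 to 2 from TS24 to TS34; from 1 to 2 in XX and 3 to 4 in XY supporting cells from TS13 to TS24, and 0 to 1 in XY from TS24 to TS34; from 10 to 16 between cell types in XX at TS34; and from 1 to 6 in the germ cell change of the sex difference. The cause of these shifts was not tested. Leaving out 1 XX germ array at TS24 leaves 1, which is assumed to vary like the other groups. No clear pairing by replicate number was seen, with correlations of same-numbered arrays from -0.508 to 0.197, but groups this small cannot exclude it. With the replicate block 1 call was lost (Ldhb by sex in supporting cells at TS34, 0.57, limma adjusted p = 0.054).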

Other observations

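In XY supporting cells Tkt, the transketolase of the pentose phosphate pathway, was lower than in XX at TS24 (-2.22 ± 0.23, limma adjusted p = 6.08e-11), and Kdm3a, a histone demethylase of the hypoxia-response list, was lower at TS24 (-1.85 ± 0.20, adjusted p = 2.67e-10). These comparisons cross mouse lines. At TS13, within 1 line, both were also lower in XY (Tkt -0.96 ± 0.23, adjusted p = 0.00598; Kdm3a -1.22 ± 0.20, adjusted p = 3.01e-05). Of 15 hypoxia-response genes, 2 were higher (P4ha1 and Epas1) and 2 lower at TS24, and 0 and 2 at TS13. Of 6 pentose phosphate genes only Tkt was called at either stage. Over all tested genes 9.75% were higher and 5.58% lower at TS24, and 1.84% and 1.94% at TS13. In germ cells at TS34, Epas1, a hypoxia-inducible factor gene, was higher in XY (1.32 ± 0.21, adjusted p = 7.28e-06), as was Shmt2, the mitochondrial serine hydroxymethyltransferase (1.25 ± 0.20, adjusted p = 5.81e-06), while Idh2 was lower (-1.11 ± 0.22, adjusted p = 2.30e-04). Epas1 was the only 1 called of 15 hypoxia-response genes, and Idh2 of 14 citrate cycle genes. Of 5 serine pathway genes, Shmt2 and Shmt1 were higher and Psat1 was lower. Over all tested genes 6.04% were higher and 4.46% lower in XY.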
